A study of Drosophila melanogaster with 3 samples.

Results

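The Tet locus was described by the chromatin immunoprecipitation sequencing (ChIP-seq) peaks of the protein Eagle along the gene Tet (FBgn0263392) of Drosophila melanogaster. Members were chosen by position, as the peaks of the authors' conservative peak list whose summit, the base of highest signal, lay in the gene body or within 10 kb of either end. The rule took 25 of the 9369 peaks on the main chromosome arms. Tet itself was selected because it held many peaks in this list, so its peak number and positions there are a description with no test. The material was whole prepupae with a labelled age of 2 days, from flies with the eg-GFP insertion, which express Eagle (gene eg) fused to enhanced green fluorescent protein, and the precipitation used an antibody to the tag. All 3 biological replicates belonged to this 1 group and came from the same transgenic strain, which leaves no contrast of conditions. Chromatin was sheared by sonication, and whole animals give no information on which cells carried a peak.

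Tet encodes the fly member of the ten-eleven translocation dioxygenases, which depend on iron and 2-oxoglutarate. In vertebrates these enzymes oxidise 5-methylcytosine in DNA, whereas the fly genome holds little of that mark, and fly Tet has been studied for its action on methylated cytosine in RNA and on N6-methyladenine in DNA. Eagle belongs to the knirps group of orphan nuclear receptors and is known for its part in the fate of serotonergic neurons of the embryonic nerve cord. In the annotation Tet runs on the minus strand of chromosome arm 3L from 2786207 to 2879158 (dm6), a length of 92.95 kb. Its 6 transcripts start at 2 transcription start sites (TSSs) that lie 58.05 kb apart. The 4 long transcripts start at the upstream site and the 2 short ones at the internal site, inside intron 4 of the long form.

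The members were numbered 1 to 25 from the 5′ end of the gene. The summit base with 50 bp on either side is given on the strand of Tet, from the RefSeq release 6 genome, for the 5 members that were strongest in every replicate and for the only member upstream of the gene. Peak 12 had the highest signal of all members, peak 13 lay at the internal TSS, and peak 1 lay closest to the upstream TSS. None of these 6 windows held a match to any of the 9 motifs searched, so no letter is in capitals.
Tet peak 12, minus strand, chr3L:2823137-2823237: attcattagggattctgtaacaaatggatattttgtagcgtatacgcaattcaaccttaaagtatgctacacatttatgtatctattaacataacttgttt
Tet peak 17, minus strand, chr3L:2806225-2806325: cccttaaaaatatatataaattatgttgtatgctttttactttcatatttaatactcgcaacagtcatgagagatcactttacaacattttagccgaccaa
Tet peak 13, minus strand, chr3L:2821307-2821407: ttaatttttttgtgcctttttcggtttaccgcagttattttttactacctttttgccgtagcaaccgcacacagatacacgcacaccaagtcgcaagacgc
Tet peak 11, minus strand, chr3L:2824178-2824278: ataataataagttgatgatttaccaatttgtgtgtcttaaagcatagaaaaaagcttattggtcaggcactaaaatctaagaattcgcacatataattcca
Tet peak 21, minus strand, chr3L:2802209-2802309: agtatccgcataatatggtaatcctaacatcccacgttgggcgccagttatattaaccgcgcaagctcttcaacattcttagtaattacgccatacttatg
Tet peak 1, minus strand, chr3L:2879866-2879966: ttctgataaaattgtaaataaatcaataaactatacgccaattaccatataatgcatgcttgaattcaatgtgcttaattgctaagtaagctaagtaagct

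Eagle peaks were spread over most of Tet but were not evenly placed, and nearly all lay in introns. Of the 25 summits, 23 were in an intron and more than 500 bp from any TSS. Of the rest, 1 was within 500 bp of a TSS, 1 was upstream of the gene, and 0 were in an exon. Over the other conservative peaks, 44.5% were in this intron class and 3.19% in an exon. For peaks in other protein-coding genes of like length, defined below, these shares were 80.9% and 2.55%. Most peaks in such genes were thus in introns, as at Tet, and few were in exons. The largest intron of the long isoform, intron 4, measures 54.88 kb or 59.04% of the gene, and it held 21 summits (84% of the members), peaks 4 to 24. Intron 1 held peak 2, intron 3 (17.75 kb) held peak 3, and intron 5 (1.257 kb) held peak 25. The smallest distance from a summit to an exon was 254 bp, the median 3125 bp and the largest 14.86 kb.

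**Figure D1:**
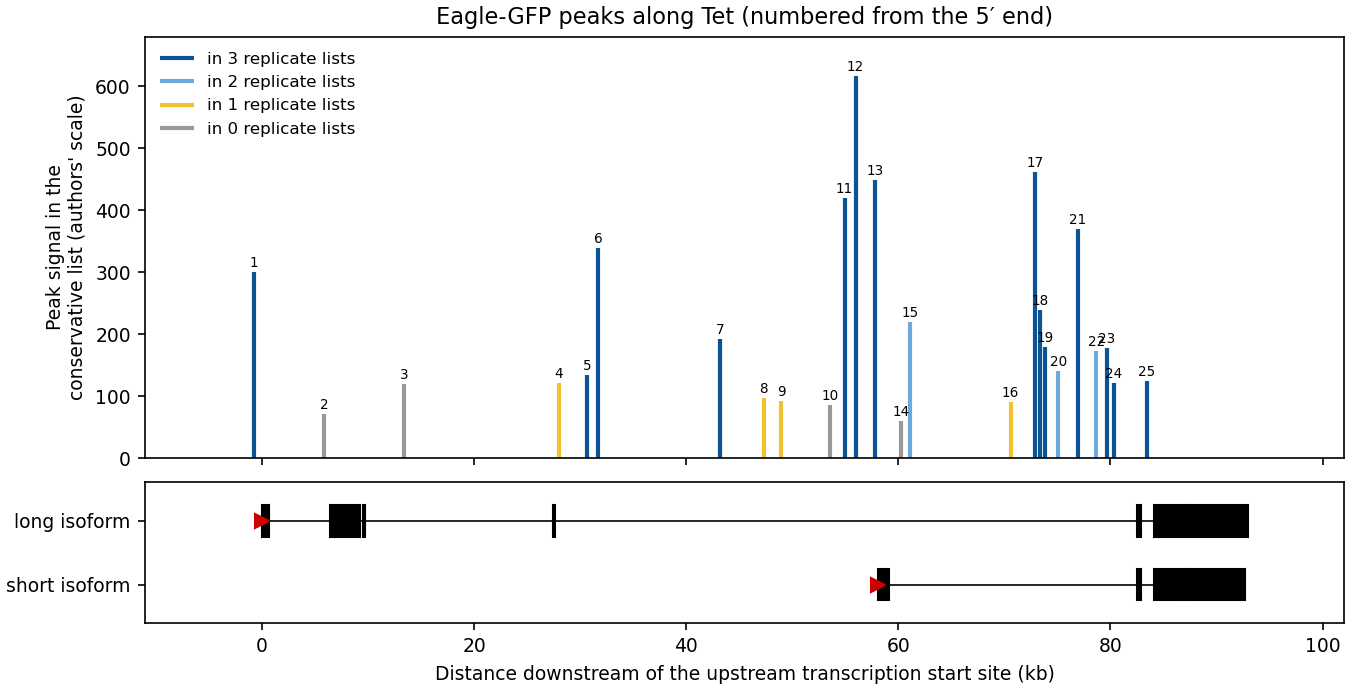
Peak signal in the conservative list (y axis, the authors' scale) against distance downstream of the upstream TSS in kb (x axis), coloured by the number of replicate lists that hold the peak, with a long and a short isoform below (boxes are exons, red arrowheads are TSSs). Peaks 11, 12 and 13, which are 3 of the 4 strongest members, stand just upstream of the internal TSS, and the last 9.51 kb of the gene hold no summit.

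Relative to the start sites, 12 members lay between the upstream and the internal TSS and 12 downstream of the internal one. The numbers are equal, but per length the stretch downstream of the internal TSS was denser, with 3.44 peaks per 10 kb against 2.07 per 10 kb between the TSSs. The last 9.51 kb before the 3′ end held no summit. The first intron of the short isoform (23.38 kb) alone held 11 of the 12 downstream summits.

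Neighbouring summits were a median of 1.82 kb apart over 24 gaps, from 435 bp between peaks 18 and 19 to 14.63 kb between peaks 3 and 4. Of these gaps, 5 were under 1 kb and 5 were over 5 kb. The median was 2907 bp without replicate 1, 2744 bp without replicate 3 and 2900.5 bp in the list of replicate 2, against 1779 bp without replicate 2. Split at the gaps over 5 kb, the members formed 3 single peaks (1, 2 and 3) and 3 groups: peaks 4 to 6 over 3.70 kb, peaks 7 to 15 over 17.9 kb, and peaks 16 to 25 over 12.9 kb. The last of these was the most crowded, with 9 summits in its densest 10 kb, from peak 16 to peak 24.

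Signal, the strength that the authors' peak caller gave each peak, was shared by the series lists where they held the same summit, but each replicate had values of its own, so values are compared within a list. The median signal of the members was 173.9 in the conservative list, against 136.7 over the whole list and 132.4 over the 1845 peaks in other protein-coding genes of like length. The members ran from 59.6 (peak 14) to 617 (peak 12), and 14 of the 25 were above the median of the list. Their ranks ran from 492 (peak 12) to 8507 (peak 14) of 9369. The members thus spread over most of the range of the list.

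Of the 4 members of highest signal in the conservative list, 3 lay just upstream of the internal TSS, and the other was peak 17. Peak 12 (chr3L:2823044-2823293), 2084 bp upstream of that TSS, had 188.5, 206.0 and 199.7 in the lists of replicates 1, 2 and 3. It was the strongest member in every replicate. Peak 13 (chr3L:2821238-2821485), 254 bp upstream of the TSS and the only member in a promoter, had 129.5, 125.9 and 186.9, and 448.3 in the conservative list. Peak 11 (chr3L:2824103-2824342), 3125 bp upstream, had 133.7, 152.7 and 148.2, and 419.6 in the conservative list. All of these values exceeded the median of their own replicate list, which was 61.5, 66.3 and 64.1.

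At the upstream TSS the only nearby member was peak 1 (chr3L:2879858-2880029), 758 bp upstream of it in intergenic sequence. Its replicate signals were 110.2, 93.5 and 85.9, again above each list's median, and its signal in the conservative list was 299.9. No summit lay within 500 bp of this TSS. The next member, peak 2, was 5.88 kb downstream of it, with a conservative signal of 71.7, and was in no thresholded replicate list.

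Inside intron 4 and downstream of the internal TSS, peaks 17, 18 and 19 stood within 1 kb of each other. Peak 17 (chr3L:2806164-2806376), 14.8 kb downstream of the internal TSS, had 152.7, 183.4 and 148.4 in the replicates and 461.8 in the conservative list. Peak 18 had 97.5, 85.8 and 134.1, and peak 19 had 69.8, 82.5 and 74.4. All 3 members were above the median of every replicate list.

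Further downstream, peak 21 (chr3L:2802158-2802341) had 135.4, 103.0 and 140.4. Peaks 23, 24 and 25 were weaker. Peak 23 had 49.9, 56.5 and 77.6, peak 24 had 26.8, 36.4 and 55.0, and peak 25, the last member, had 56.9, 38.2 and 47.7. The 26.8 at peak 24 belongs to an overlapping peak of replicate 1 whose summit lies outside peak 24. Another overlapping peak of replicate 1, with its summit inside peak 24, had 13.1. The 5 members of highest signal were the same in each replicate, namely peaks 11, 12, 13, 17 and 21, with peak 12 leading each time and the other 4 in differing order.

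Upstream of the internal TSS, intron 4 held the group of peaks 4 to 6 and peaks 7 to 10. Peak 6 (chr3L:2847334-2847550), 26.4 kb upstream of the internal TSS, had 106.3, 101.7 and 125.0. Peak 5 had 39.0, 47.7 and 56.1, and peak 7 had 55.0, 56.1 and 84.0. Of the latter pair, only peak 7 in replicate 3 passed the median of its list. Peaks 4, 8, 9 and 10 had conservative signals of 121.6, 96.5, 92.5 and 86.0.

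**Figure D2:**
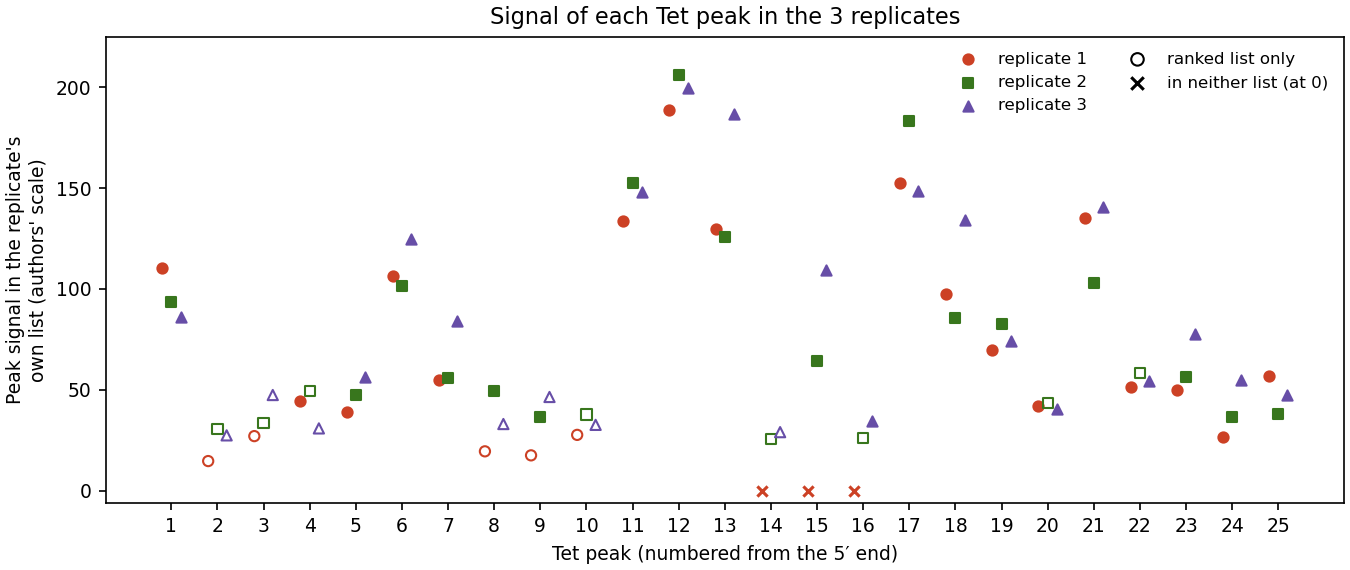
Signal of each Tet peak (x axis, numbered from the 5′ end) in the list of each replicate (y axis, the authors' scale), with filled symbols for peaks in the thresholded list, open symbols for peaks in the ranked list only, and crosses at 0 for peaks in neither. Peak 12 is highest in each replicate at 188.5, 206.0 and 199.7, and peaks 14, 15 and 16 are in no list of replicate 1.

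Replicate support was counted as overlap, by at least 1 bp, with the list of each replicate thresholded by the irreproducible discovery rate (IDR), a measure of how well peak ranks repeat. Those lists were made from the same alignments as the conservative list, so the overlap is not independent of it. The members overlapped in all 3 replicates numbered 14 of 25 (56.0%), where the share over the whole list was 43.8% and over the peaks in other genes of like length 41.6%. There were 3 members in 2 replicates, 4 in 1 replicate and 4 in none. With the ranked lists, the longer lists before the IDR threshold, 22 of 25 (88.0%) were in all 3, against 91.5% of the other peaks. Present at once in all 3 of the other thresholded lists of the whole series were 18 of 25 (72.0%), against 75.1% of the other peaks. Keeping only members found in both remaining replicates left 15 without replicate 1, 16 without replicate 2 and 14 without replicate 3. The share in none, 16%, was near the 16.4% of the whole list.

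By replicate, 17, 17 and 18 of the members were in the thresholded lists of replicates 1, 2 and 3. Those lists held 18, 17 and 21 peaks at the locus, or 18.7 ± 2.08 (SD, n = 3). In replicates 1 and 3, 1 member each was overlapped by 2 peaks, and the higher of their signals is the one given. Replicate 3 also held 2 peaks at the locus that are not in the conservative list, with signals of 51.7 and 39.7. The 14 members in all 3 had conservative signals from 122.1 to 617, and the 4 in none, peaks 2, 3, 10 and 14, from 59.6 to 119.7. These ranges did not overlap, but their ends at 119.7 and 122.1 were close. Among the other conservative peaks such ranges did overlap. There, 207 of 2826 peaks below a signal of 100 were in all 3, and 205 of 2362 from 100 to 150 were in none.

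Support followed signal at Tet as it did elsewhere in the list. Below a signal of 100, 0 of 6 members were in all 3 replicates, and 7.32% of all other peaks were. From 100 to 150 it was 3 of 6 members against 15.9%, and from 150 to 200 it was 3 of 4 against 59.8%. From 200 to 300 it was 2 of 3 members against 91.0%, and at 300 or more 6 of 6 against 98.3%. With at most 6 members in a class, the share of any class shifts by much when 1 member changes side.

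**Figure D3:**
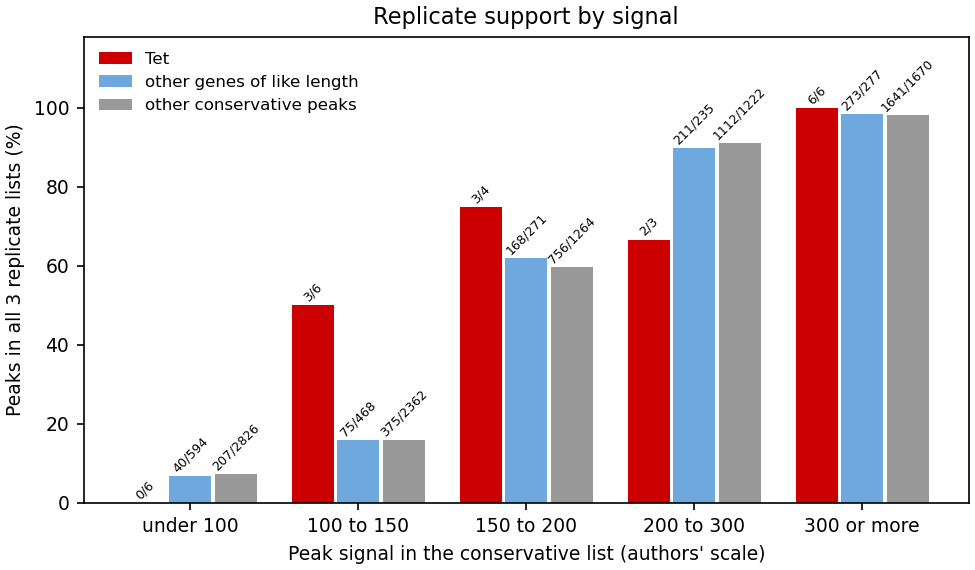
Percent of peaks in the thresholded lists of all 3 replicates (y axis) by signal class in the conservative list (x axis, the authors' scale), for Tet, for peaks in other genes of like length and for all other conservative peaks, with the number of peaks above each bar. The Tet share goes from 0 of 6 below 100 to 6 of 6 at 300 or more.

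Peak width went with support as well. A width of 360 bp, the commonest in the list, was shared by 15 members, of which 5 were in all 3 replicates and whose median signal was 121.6. The 10 narrower members had a median signal of 354.4, and 9 of them were in all 3 replicates. Among all other conservative peaks the same split was 21.7% for the 360 bp peaks and 92.6% for the narrower ones, so the members divided as the list did.

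Peaks 14, 15 and 16 differed between replicates. Peak 15, 3056 bp downstream of the internal TSS, had 64.4 in replicate 2 and 109.5 in replicate 3, and peak 16 had 26.3 and 34.6. Peak 14, the weakest member, had 25.5 and 29.0 and was in the ranked lists only. None of the 3 was in either list of replicate 1. Between peaks 17 and 13, a stretch of 14.9 kb, the ranked list of replicate 1 held 1 peak, against 10 in replicate 2 and 8 in replicate 3. Over the locus the 3 ranked lists held 83, 87 and 104 peaks, so the near-empty stretch in replicate 1 was local.

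Such local absences were found elsewhere in replicate 1. Of all conservative peaks, 671 (7.16%) were in no ranked entry of replicate 1, with 29 runs of 3 or more neighbouring peaks. The share was 1.08% for replicate 2 and 0.704% for replicate 3, with 0 such runs in each. What distinguishes replicate 1 at these places was not tested. Without replicate 1, the members supported by both other replicates were 15 of 25, and peak 15 was the 1 member in both other lists and not in that of replicate 1.

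Across the members, the order of signal in the ranked lists was alike between replicates. Spearman's rho was 0.93 between replicates 1 and 2 (n = 22 peaks), 0.88 between 1 and 3 (n = 22) and 0.89 between 2 and 3 (n = 25). The points share a locus and were selected as peaks of the joined replicates, so these values describe the members and carry no test.

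Tet held more peaks than most genes of its size. Like length was taken as 0.5 to 2 times that of Tet, 46.48 to 185.9 kb, and 345 protein-coding genes with Tet fell in that range. The gene body of Tet held 24 summits, rank 7 of 345, tied with CG1677, while the other genes had a median of 3 and 92 of them had 0. Per length Tet had 2.58 peaks per 10 kb (rank 11, median of the others 0.423), and its densest 10 kb held 9 (rank 4, median 2). Counting only peaks in all 3 replicates, Tet had 13 (rank 5, median 1). In the thresholded lists of replicates 1, 2 and 3 its rank by body peaks was 6, 7 and 8, and in the other 3 thresholded lists of the whole series it was 13, 11 and 16. Its rank was 4 without replicate 2 and also 4 among the 94 genes in a narrower range of length. Since Tet was chosen by its peak number, these ranks place it and test nothing.

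**Figure D4:**
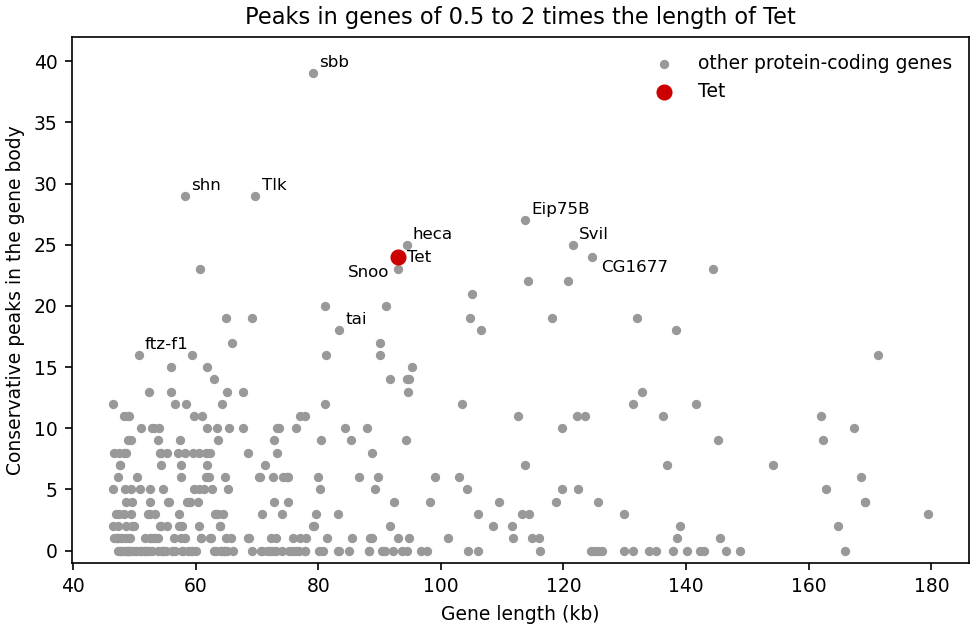
Conservative peaks in the gene body (y axis) against gene length in kb (x axis) for the 345 protein-coding genes of 0.5 to 2 times the length of Tet, 1 point per gene, with Tet in red and the leading and most alike genes labelled. Tet has 24 peaks, and the highest count is 39, in sbb.

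The genes of like length with the most body peaks were sbb (scribbler, a nuclear regulator) with 39, Tlk (Tousled-like kinase) with 29, shn (schnurri, a zinc finger factor of Dpp signalling) with 29, Eip75B (an ecdysone-induced nuclear receptor) with 27, and Svil (the fly supervillin) with 25. The share of promoter summits was higher in each of them than in Tet, by the least in sbb. Promoter summits, within 500 bp of a TSS, made up 4.17% of the body peaks of Tet, 7.69% in sbb, 13.8% in shn, 14.8% in Eip75B, 20.7% in Tlk and 36.0% in Svil. The same genes have from 2 TSSs (sbb and Tet) to 16 (Svil), and the part of TSS number in these shares was not tested.

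Among the 151 genes of like length with 5 or more body peaks, Tet was low in promoter summits, and its spacing in the conservative list was below the median. Its 4.17% of promoter summits was rank 117, against a median of 14.3% in the others, and its median spacing of 1813 bp was rank 114, counted from the widest, against 2807 bp. Its 54.2% of body peaks in all 3 replicates was rank 34 (median 40.0%), and its median body signal of 157 was rank 37 (median 131). Its 95.8% of body summits in an intron and away from a TSS was rank 27 (median 83.3%). From a summit to the nearest TSS of the own gene, the median distance was 14.8 kb at Tet (rank 49), against 8.31 kb. At Tet, 18 of the 24 body summits lay over 5 kb from a Tet TSS. By this share Tet was rank 54 of 151, tied with 9 other genes, and the median share of the others was 62.8%.

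The longest intron of Tet was rank 76 by its length of 54.9 kb, while its 21 peaks were rank 5 and its 3.83 peaks per 10 kb rank 6 of 345. The median of the others was 1 peak and 0.358 per 10 kb. The longest intron held 36 peaks in sbb, 27 in Tlk, 22 in CG1677 and 22 in Snoo. By rank, Tet stood higher by the peaks in this intron than by the length of the intron. Tet was chosen by its peak number, and this intron held most of its body peaks, so these ranks test nothing.

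The genes most like Tet were found by the distance over 5 standardised measures: peaks per kb, percent in all 3 replicates, percent promoter, median log2 signal and median spacing. Among the 151 genes these were Snoo (a Ski family corepressor) at 0.513, heca (headcase) at 0.584, tai (taiman, a coactivator of the ecdysone receptor) at 0.600, ftz-f1 (a nuclear receptor of the prepupal ecdysone response) at 0.775 and CG1677 at 1.07, a distance of 0 being identity. Snoo, with 23 peaks in 93.01 kb, is also close to Tet in length, and 52.2% of its peaks were in all 3 replicates. Its summits were less crowded, with a median spacing of 3042 bp against 1813 bp at Tet. The densest 10 kb of Snoo held 5 peaks, against 9 at Tet. The gene heca had 25 peaks in 94.5 kb, with 52.0% in all 3 and 0 promoter summits. ftz-f1 was denser, with 3.16 peaks per 10 kb.

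The genes next to Tet had no body peaks, and 1 of them, Atg2, had a promoter peak. Within 10 kb downstream lie Pgant6 (a glycosyltransferase that starts mucin-type sugar chains), mRpS35 (a mitochondrial ribosomal protein) and Atg2 (an autophagy gene), and upstream lie spz5 (a Spätzle family ligand) and the non-coding lncRNA:CR44531. The member nearest to the edge of the 10 kb window was peak 1, 0.758 kb past the gene, and the downstream flank held 0 members. The nearest peaks outside were 12.1 kb downstream, with a signal of 539 at 61 bp from a TSS of CG12093, also within 1000 bp of a TSS of Atg2 and found in all 3 replicates, and 15.7 kb upstream, with a signal of 105 at 110 bp from a TSS of Shab (a potassium channel) and found in none. Apart from peak 1, the locus thus held no summit outside the gene body.

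Genes of nucleic acid methylation and the JmjC dioxygenases, which share with Tet the use of iron and 2-oxoglutarate, were listed for comparison. With a promoter peak taken as a conservative summit within 1000 bp of a TSS, 6 of the 19 methylation genes had one (31.6%), where 27.2% of all 13945 protein-coding genes did. Of these 6, 3 were in all 3 replicates: Tet at a signal of 448, Nsun5 (an RNA cytosine methyltransferase) at 368 and fl(2)d (a subunit of the RNA N6-adenosine methyltransferase complex) at 257. Tet, which counts among the 6, was itself chosen by its peak number in this list. Over all conservative peaks, at promoters or not, 43.8% were in all 3 replicates. AlkB, Flacc and Hakai were among the 13 methylation genes without a promoter peak. Of the 11 JmjC genes, 4 had a promoter peak (36.4%), including JMJD6 at 379 and JMJD7 at 324, both in all 3 replicates, and Kdm5 (a histone H3 lysine demethylase) at 98.3 in 1 replicate, while HSPBAP1, JMJD5 and Kdm2 had none. The shares were near that of all genes. In the gene body, 17 of the 19 methylation genes and 9 of the 11 JmjC genes had 0 peaks. So did 11520 of all 13945 protein-coding genes. None in either list but Tet, which was chosen by its peak number, had more than 2. The longest of the other genes in both lists, Kdm4B, measures 21.8 kb, and the part of length in this difference was not tested.

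In base composition the summits of Tet were poorer in G and C than its introns. The windows of 50 bp to either side of the summit had a median GC content of 34.7%, from 18.8% at peak 9 to 53.5% at peak 24. Windows of that width along the introns of Tet had a median of 40.6% (n = 775), other intron summits of the list 33.7%, and all summits 35.6%. The members were therefore close to other summits in composition. The strong peaks 11, 12 and 17 each had 28.7%.

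The summit windows were searched on both strands for 9 short motifs. TATTTAT was in 4 of 25 (peaks 8, 10, 15 and 19), or 16%, against 9.55% of all summit windows. CACACACA was in 2 (peaks 24 and 25), against 3.10%. TAGAGCA, searched as the half-site of the knirps family, was in 1 (peak 20), against 0.736%. The nuclear receptor core AGGTCA was in 0 of 25, against 1.76%, and the repeat GAGAGAG in 0, against 3.71%. The same held for TATCGATA at 0.651% of all windows, for CAGCTG at 3.47%, for CACGTG at 0.865% and for TGAGTCA at 0.854%. Along the gene body of Tet, 7.49% of the 921 windows held TATTTAT, 3.91% CACACACA and 0.76% TAGAGCA. For AGGTCA this share was 1.95%, and for GAGAGAG it was 1.09%, lower than over all summit windows. A match is a run of letters and says nothing of binding, and with 25 windows a difference of 1 or 2 members is small. The windows with the most matches to TATTTAT, with TAGAGCA and with CACACACA follow, on the strand of Tet with the matches in capitals. Matches to TATTTAT can overlap each other, as at peak 19, and peak 19 was in all 3 replicates, peak 20 in 2 and peak 24 in all 3.
Tet peak 19, minus strand, chr3L:2805279-2805379: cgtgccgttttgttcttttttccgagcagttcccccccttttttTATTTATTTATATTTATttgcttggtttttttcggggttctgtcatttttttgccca
Tet peak 20, minus strand, chr3L:2804022-2804122: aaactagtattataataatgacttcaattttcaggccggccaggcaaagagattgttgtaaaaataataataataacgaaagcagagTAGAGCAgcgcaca
Tet peak 24, minus strand, chr3L:2798761-2798861: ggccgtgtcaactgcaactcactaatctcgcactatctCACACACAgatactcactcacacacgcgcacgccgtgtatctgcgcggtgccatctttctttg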

How the data were processed

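Per the labels, chromatin of 3 biological replicates was precipitated with an antibody to GFP, and the deposited peak lists are on dm6. Of the aligner, the peak caller and the IDR settings, the sources used here say nothing, and the labelled control experiment was not analysed here. The signal of a peak is the peak strength as deposited by the authors, and the score is a whole number that the authors' IDR step gave each peak, from 830 to 1000 in the conservative list. No read counts were used, so depth is unknown and no interval could be given. The 4 ranked lists of the whole series have 32 columns of values for members that nothing ties to a replicate, and these were not used. Replicate lists come from the same alignments as the series lists.

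Summits were placed on genes of Ensembl release 115 (BDGP6.54, the dm6 coordinates), without transposon genes, on the 2L, 2R, 3L, 3R, 4 and X chromosomes, which left out 1 of 9370 peaks. Genomic sequence came from the RefSeq release 6 assembly. Python 3.11.15, NumPy 2.4.6, pandas 2.3.3 and SciPy 1.17.1 were used. Class assignment, overlap and gene counts were checked on simulated data. Named genes are those within 10 kb of Tet, the 5 of like length with the most body peaks, the 5 most alike in pattern, and, per gene list, up to 3 with the strongest promoter peaks and up to 3 without one in alphabetical order. CG12093 and Shab, nearest to the first peaks outside the window, and Kdm4B were named after their values were seen. Members and lists were chosen with earlier results of these data known, and no test was made. The alternatives were other peak lists, flanks, overlaps, windows, length ranges and leaving out each replicate.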

Additional observations from a re-analysis of the deposited data

How the results depend on the processing

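The peak count stayed within 1.5 times of 25 (17 to 28) under other flanks, other series lists and each replicate's list, and fell to 14 in the part of the list above its median signal and to between 14 and 16 without 1 replicate. The rank of 7 by body peaks became 13, 11 and 16 in the other series lists (1, 2 and 3, from smallest to largest), 4 among the 94 genes of a narrower range of length, 11 per kb, and 4 to 8 without 1 replicate. The 56.0% of members in all 3 replicates became 68.4%, 65.0% and 52.0% in the other series lists, 78.6% above the median signal, 52.0% with 50% overlap, 88.0% with ranked lists, and 56.0% to 64.0% without 1 replicate. The median percentile of signal, 62.7, became 70.1 in series list 3, 51.4 in the list of replicate 1, and 44.8 to 57.1 without 1 replicate. The median spacing of 1821.5 bp became 2900.5 bp in the list of replicate 2 and 1779 to 2907 bp without 1 replicate. The 92.0% of summits in an intron and away from a TSS became 89.5% and 90.0% in series lists 1 and 2, 85.7% above the median signal, 88.9%, 88.2% and 90.5% in the lists of replicates 1, 2 and 3, 96.0% with a 200 bp window, and 85.7% to 87.5% without 1 replicate. The cause of these shifts was not tested. Leaving out a replicate in the support share, and the ranks in single replicates and above the median signal, were chosen after seeing the data. No paired analysis was possible because the replicates form 1 group.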
